A study of Saccharomyces cerevisiae with 10 samples.

Results

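The 10 genes described here handle ammonium and its repression of poorer nitrogen sources in the yeast Saccharomyces cerevisiae: GDH1, GDH2, GDH3, GLT1, GLN1, MEP1, MEP2, MEP3, GAP1 and DAL80. They were taken by name from the 6607 genes of a count table, and all 10 were among the 5856 genes that passed the filter on low counts and were tested. The study used RNA-seq to ask how yeast cells adapt to sup35-218, a nonsense allele of the essential gene SUP35, which encodes the translation termination factor eRF3. In plasmid shuffling, cells that lack the chromosomal SUP35 exchange the plasmid that carries it for another one on medium that selects against URA3. Cells bearing sup35-218 were grown as 3 cultures of strain 218-L-14-D1690 at stage 3, after shuffling, with the allele on plasmid pRSU1-218, which has the LEU2 marker. They were set against 4 cultures of L-14-D1690, also at stage 3, with wild-type SUP35 on a LEU2 plasmid, and against 3 cultures of the initial strain U-14-D1690 at stage 1, with wild-type SUP35 on the URA3 plasmid pRSU2. The methods name pRSU1 as the plasmid of L-14-D1690, whereas its label names pRSU2. All 10 cultures share the genotype labelled MATa, with the nonsense alleles ade1-14(UGA) and trp1-289(UAG), the marker alleles his3-d200, lys2, ura3-52 and leu2-3,112, and the SUP35::HIS3MX replacement. Cultures grew in liquid synthetic complete (SC) medium, per the methods without uracil for the URA3 plasmid and without leucine for the LEU2 plasmid. Stage, plasmid marker and medium therefore differ together between stage 3 and stage 1 and cannot be told apart, and at stage 3 the 2 alleles were compared on the same marker.

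As background, ammonium enters yeast cells through the permeases Mep1, Mep2 and Mep3, is joined to 2-oxoglutarate by the NADP-dependent glutamate dehydrogenases Gdh1 and Gdh3, and is joined to glutamate by the glutamine synthetase Gln1. The glutamate synthase Glt1 makes glutamate from glutamine and 2-oxoglutarate, and the NAD-dependent Gdh2 releases ammonium from glutamate. When good nitrogen sources are at hand, the GATA activators Gln3 and Gat1 are held back, with Ure2 as a negative regulator, and genes such as GAP1, MEP2 and DAL80 are then kept low, a state called nitrogen catabolite repression.

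In cells bearing sup35-218, transcripts of the GLT1 glutamate synthase, the GAP1 amino acid permease and the ammonium permeases MEP2 and MEP1 were lower than in SUP35 cells of stage 3, while those of the GLN1 glutamine synthetase were higher. Against SUP35 cells of stage 3, GLT1 was 2.17-fold lower, GAP1 1.93-fold lower, MEP2 1.60-fold lower, MEP1 1.47-fold lower and GLN1 1.74-fold higher. The glutamate dehydrogenase genes GDH1, GDH2 and GDH3, the permease gene MEP3 and the repressor gene DAL80 did not pass the test. GAP1 and MEP2 were also lower in SUP35 cells of stage 3 than in SUP35 cells of stage 1, by 1.79-fold and 1.80-fold, whereas GLT1 and GLN1 had log2FC values near 0 between these 2 groups.

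A call here means a Benjamini-Hochberg adjusted p-value under 0.05 from the quasi-likelihood test of edgeR, adjusted across the 5856 genes; every adjusted p below has this source. A DEG also has a log2FC above 0.5 in size. Between sup35-218 cells and SUP35 cells of stage 3, 1 of the 10 genes was called higher and 4 were called lower, all of them DEGs. Of all genes tested, 39.2% were called in either direction in this comparison, 18.5% as higher and 20.7% as lower, and 23.3% were DEGs (10.7% higher and 12.6% lower). The median log2FC of the 10 genes was -0.17, beside -0.01 for all genes tested. Between sup35-218 cells and SUP35 cells of stage 1, again 1 was called higher and 4 lower, where 46.3% of all genes were called (22.9% higher and 23.3% lower); 4 of the 5 were DEGs, beside 31.2% of all genes (14.7% higher and 16.5% lower), and the median log2FC was -0.29, beside 0.04. Between SUP35 cells of stage 3 and of stage 1, 2 genes were called lower and 0 higher, where 25.4% of all genes were called (12.8% lower and 12.7% higher); 0 rose at an unadjusted p under 0.05 either, and 0 in DESeq2's test. Both lower genes were DEGs in this last comparison, beside 13.8% of all genes (7.21% higher and 6.63% lower), and the median log2FC was -0.12, beside -0.003 for all genes. The sup35-218 cultures are shared by 2 of the comparisons, and so are the cultures of each SUP35 group.

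Total counts per culture were 3044096 to 4861009, so that a count of 3 corresponds to 0.617 to 0.986 CPM, the usual scale of counts relative to the library total. Values below are CPM scaled by TMM factors, called normalized CPM, and they are relative levels: fewer cells with a transcript and less of it per cell cannot be told apart. The reads of URA3 went against the label of L-14-D1690, which names pRSU2, the URA3 plasmid: URA3 averaged 72.9, 81.9 and 934 normalized CPM in sup35-218, SUP35 stage 3 and SUP35 stage 1 cells. LEU2 averaged 6956, 2409 and 1625, and SUP35 reads, which include the sup35-218 allele, averaged 1979, 602 and 436. The level of LEU2 thus differed together with the allele at stage 3 (log2FC 1.53, adjusted p = 2e-05), and its part in the results was not tested. The paper relates it to the larger number of plasmid copies found earlier in such cells. Summed, the mating-type markers went against the label. The 5 a-specific markers MFA1, MFA2, STE2, STE6 and BAR1 summed to 93.5 to 111, 85.2 to 184 and 214 to 514 normalized CPM in these groups. The 3 alpha-specific markers MFALPHA1, MFALPHA2 and STE3 summed to 629 to 910, 962 to 1135 and 918 to 1148. None of the 8 was at 0 in any culture. These sums are not per kilobase, and MFALPHA1, with averages of 534, 751 and 685, made up most of the alpha-specific ones. In SUP35 cells of stage 1, STE2 averaged 146, above MFALPHA2 at 94.6, and the other a-specific markers averaged less than MFALPHA2. Per kilobase the order there was mixed: MFALPHA1 averaged 1375, MFA1 547, MFA2 302, MFALPHA2 261, STE3 157 and STE2 112.5. BAR1 and STE6 averaged 25.8 and 20.6. In both stage 3 groups, every alpha-specific marker averaged above every a-specific marker per kilobase. All 5 a-specific markers were lower in SUP35 cells of stage 3 than of stage 1, as MEP2 and GAP1 were, and their part in those results was not tested.

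GATAAG is a sequence that GATA factors recognise. Exact matches to it were searched for on both strands in the 500 bases before each start codon in the S288C reference (RefSeq, build R64). At least 1 match lay before 8 of the 10 genes, each with 2 or more, whereas 22.9% of 5903 promoters of this length hold at least 1 match and 3.66% hold at least 2. The 10 genes were chosen by name, some as known targets of GATA factors, so that their share above all promoters is not a test. GDH2 and GLN1 had 0 matches, which does not show that they lack GATA sites, as only exact GATAAG was counted. The stretches below, with up to 10 flanking bases, are shown because MEP2 and GAP1 were lower in all 3 comparisons, GLT1 was called lower in sup35-218 cells against both SUP35 groups, and MEP3 and DAL80, which also hold several matches, were not called in any. Each reads towards its gene, with GATAAG or its reverse complement CTTATC in capitals.
MEP2: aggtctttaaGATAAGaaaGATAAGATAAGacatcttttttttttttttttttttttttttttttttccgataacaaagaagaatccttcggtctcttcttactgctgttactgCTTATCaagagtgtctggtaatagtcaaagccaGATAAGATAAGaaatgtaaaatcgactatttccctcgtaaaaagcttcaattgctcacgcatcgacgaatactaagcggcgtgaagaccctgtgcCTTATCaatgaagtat
GAP1: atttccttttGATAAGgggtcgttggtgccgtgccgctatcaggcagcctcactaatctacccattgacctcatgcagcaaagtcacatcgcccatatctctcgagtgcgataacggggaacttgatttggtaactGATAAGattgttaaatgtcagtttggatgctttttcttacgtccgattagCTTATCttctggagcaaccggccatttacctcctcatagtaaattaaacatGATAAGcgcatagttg
GLT1: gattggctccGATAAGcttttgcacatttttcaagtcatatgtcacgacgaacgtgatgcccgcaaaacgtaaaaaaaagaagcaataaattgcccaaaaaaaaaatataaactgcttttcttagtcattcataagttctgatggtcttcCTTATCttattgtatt
MEP3: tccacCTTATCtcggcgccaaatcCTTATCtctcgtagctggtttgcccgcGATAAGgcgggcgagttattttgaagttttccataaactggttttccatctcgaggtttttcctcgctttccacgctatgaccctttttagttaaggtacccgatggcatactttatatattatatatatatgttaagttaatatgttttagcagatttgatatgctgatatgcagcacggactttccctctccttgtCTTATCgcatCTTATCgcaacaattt
DAL80: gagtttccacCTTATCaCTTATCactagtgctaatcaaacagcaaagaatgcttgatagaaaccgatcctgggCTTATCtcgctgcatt
The MEP2 stretch (chrXIV:356978-357235, plus strand, 475 to 218 bases before the start codon) has 7 matches, among them 2 pairs that overlap by 1 base, and the annotation of the count table places the open reading frame YNL143C under part of it. The GAP1 stretch (chrXI:514584-514836, plus strand) has 4 matches between 479 and 227 bases before the start codon. The GLT1 stretch (chrIV:155962-156127, minus strand) has 2 matches, and the MEP3 stretch (chrXVI:812679-812953, minus strand) has 5. The DAL80 stretch (chrXI:506598-506686, plus strand) has 3 matches within 300 bases of the start codon and lies partly under the open reading frame YKR032W. TGACTC, the core recognised by the amino acid starvation activator Gcn4, matched once before each of GDH1, GDH2 and GLN1, beside 12.8% of all promoters. A match is a description of the letters: GAP1, which was called, had 4, and MEP3, which was not, had 5.

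**Figure D1:**
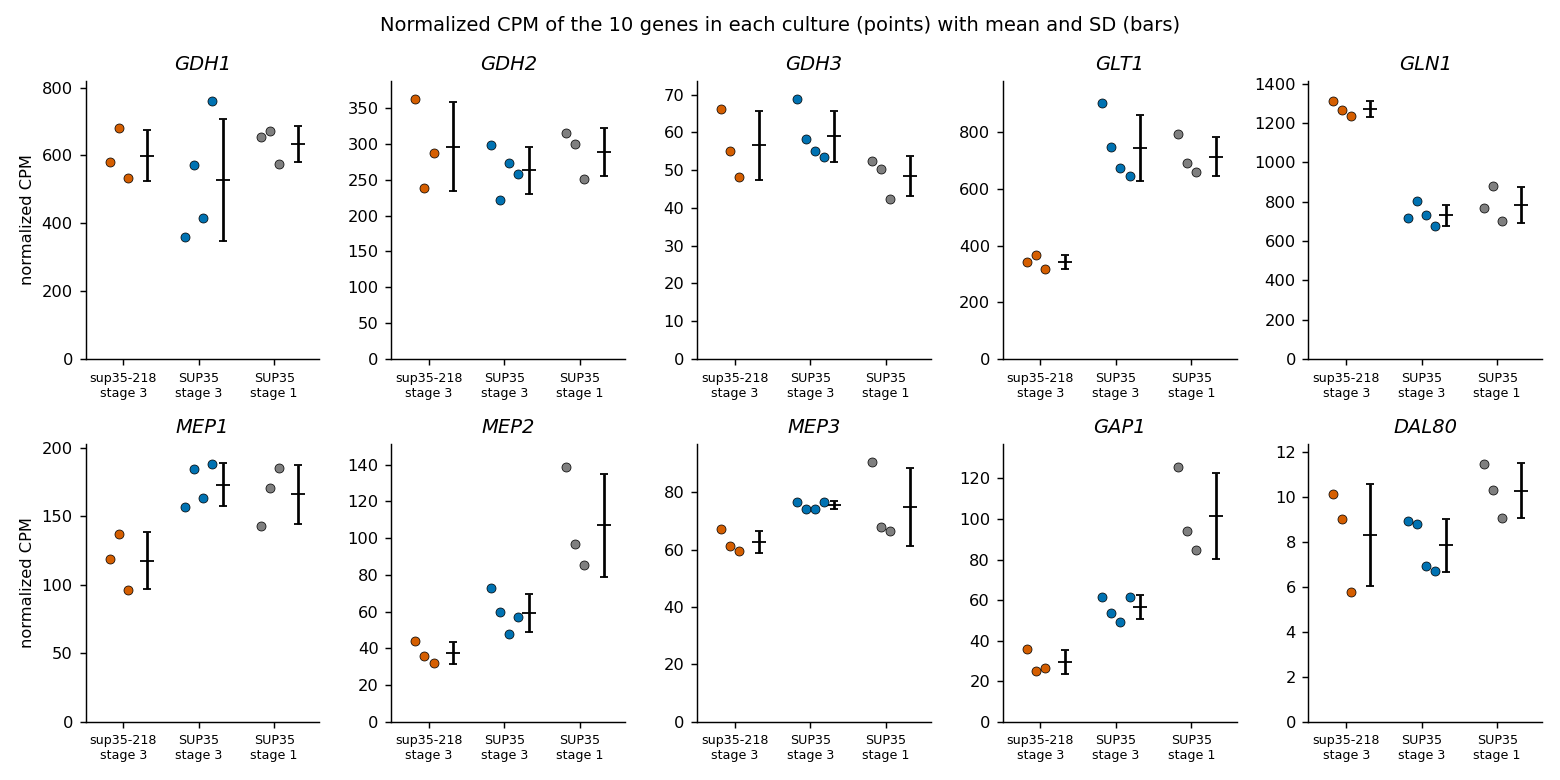
Normalized CPM of each of the 10 genes (vertical axes, starting at 0) in the 3 sup35-218 cultures of stage 3, the 4 SUP35 cultures of stage 3 and the 3 SUP35 cultures of stage 1; points are cultures in replicate order, and the bar beside them is the mean with SD. The sup35-218 cultures of GLT1 lie between 318 and 368, below every SUP35 culture, and those of GLN1 lie between 1237 and 1315, above every SUP35 culture.

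Of the enzymes, GLT1 (YDL171C, chrIV:149203-155640, minus strand), which encodes the NADH-dependent glutamate synthase, had the lowest adjusted p of the 10 genes between sup35-218 and SUP35 cells of stage 3. GLT1 had 341, 368 and 318 normalized CPM in sup35-218 cells, against 906, 750, 676 and 645 in SUP35 cells of stage 3 and 793, 693 and 660 in SUP35 cells of stage 1. The sup35-218 cultures stood below all 7 SUP35 cultures, and the 2 SUP35 groups overlapped. The log2FC of GLT1 was -1.12 (SE 0.134, adjusted p = 4.3e-05) against SUP35 cells of stage 3 and -1.06 (SE 0.141, adjusted p = 4.6e-05) against those of stage 1. Between SUP35 cells of stage 3 and of stage 1 it was 0.06 (95% interval -0.22 to 0.34, adjusted p = 0.78).

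GLN1 (YPR035W, chrXVI:642208-643320, plus strand), which encodes glutamine synthetase, was higher in sup35-218 cells than in both SUP35 groups. It had 1315, 1266 and 1237 normalized CPM in sup35-218 cells, against 717, 805, 730 and 676 in SUP35 cells of stage 3 and 767, 882 and 703 in SUP35 cells of stage 1. Again the sup35-218 cultures did not overlap with either SUP35 group, and the SUP35 groups overlapped with each other. Its log2FC was 0.80 (SE 0.113, adjusted p = 0.00015) against SUP35 cells of stage 3, 0.70 (SE 0.122, adjusted p = 0.00045) against those of stage 1, and -0.10 (95% interval -0.34 to 0.14, adjusted p = 0.55) between the 2 SUP35 groups.

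Glutamine synthetase and glutamate synthase work in sequence, and their transcripts moved in opposite directions in sup35-218 cells. Within each culture, the ratio of GLN1 to GLT1 does not depend on how libraries are scaled. Per kilobase of gene length, this ratio was 22.3, 19.9 and 22.5 in sup35-218 cells, against 4.58, 6.20, 6.25 and 6.06 in SUP35 cells of stage 3 and 5.59, 7.36 and 6.17 in SUP35 cells of stage 1. The sup35-218 cultures were all above the highest SUP35 culture, and the SUP35 groups overlapped; no separate test was made of the ratio.

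GDH1 (YOR375C, chrXV:1041678-1043042, minus strand) encodes the NADP-dependent glutamate dehydrogenase of cells growing on glucose. It had 582, 681 and 534 normalized CPM in sup35-218 cells, against 360, 572, 416 and 760 in SUP35 cells of stage 3 and 654, 673 and 574 in SUP35 cells of stage 1. The SUP35 cultures of stage 3 were spread more widely (SD 179, n = 4) than the other groups and overlapped with both. GDH1 was not called in sup35-218 cells against this group, with a log2FC of 0.18 (95% interval -0.25 to 0.62, adjusted p = 0.50), or of 0.41 (adjusted p = 0.057) without SUP35 stage 3 replicate 4. Against SUP35 cells of stage 1 it was -0.08 (95% interval -0.55 to 0.39, adjusted p = 0.78), and between SUP35 cells of stage 3 and stage 1 it was -0.27 (95% interval -0.70 to 0.17, adjusted p = 0.36). The highest stage 3 culture, replicate 4, decides the last call: without it the log2FC was -0.50, with an adjusted p of 0.043.

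GDH3 (YAL062W, chrI:31567-32940, plus strand) encodes a second NADP-dependent glutamate dehydrogenase, known to be made on non-fermented carbon sources. It had 66.2, 55.2 and 48.2 normalized CPM in sup35-218 cells, against 68.8, 58.2, 55.1 and 53.5 in SUP35 cells of stage 3 and 52.3, 50.4 and 42.4 in SUP35 cells of stage 1. All SUP35 cultures of stage 3 were above those of stage 1, with a log2FC of 0.28 that did not pass the test (95% interval -0.01 to 0.57, adjusted p = 0.14). Its log2FC was -0.06 (adjusted p = 0.74) against SUP35 cells of stage 3 and 0.22 (adjusted p = 0.24) against those of stage 1. GDH1 and GDH3 are 77.4% identical over 1361 aligned bases, and their longest identical run is 35 bases; how the counting treated reads matching both is not given in the sources used here, and the split between them is uncertain to that extent. Per kilobase, GDH3 made up 10.2%, 7.45% and 8.23% of GDH1 plus GDH3 in sup35-218 cells, against 15.9%, 9.19%, 11.6% and 6.53% in SUP35 cells of stage 3 and 7.37%, 6.93% and 6.84% in SUP35 cells of stage 1. Here the stage 3 groups overlapped, and the widest spread again belonged to SUP35 cells of stage 3.

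GDH2 (YDL215C, chrIV:70640-73918, minus strand), the NAD-dependent glutamate dehydrogenase that breaks glutamate down, had 362.2, 238.5 and 287.5 normalized CPM in sup35-218 cells, against 299, 221, 274 and 259 in SUP35 cells of stage 3 and 316, 300 and 251 in SUP35 cells of stage 1. All groups overlapped. Its log2FC was 0.17 (95% interval -0.14 to 0.48, adjusted p = 0.38) against SUP35 cells of stage 3, 0.03 (95% interval -0.29 to 0.36, adjusted p = 0.87) against those of stage 1, and -0.14 (adjusted p = 0.52) between the SUP35 groups.

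**Figure D2:**
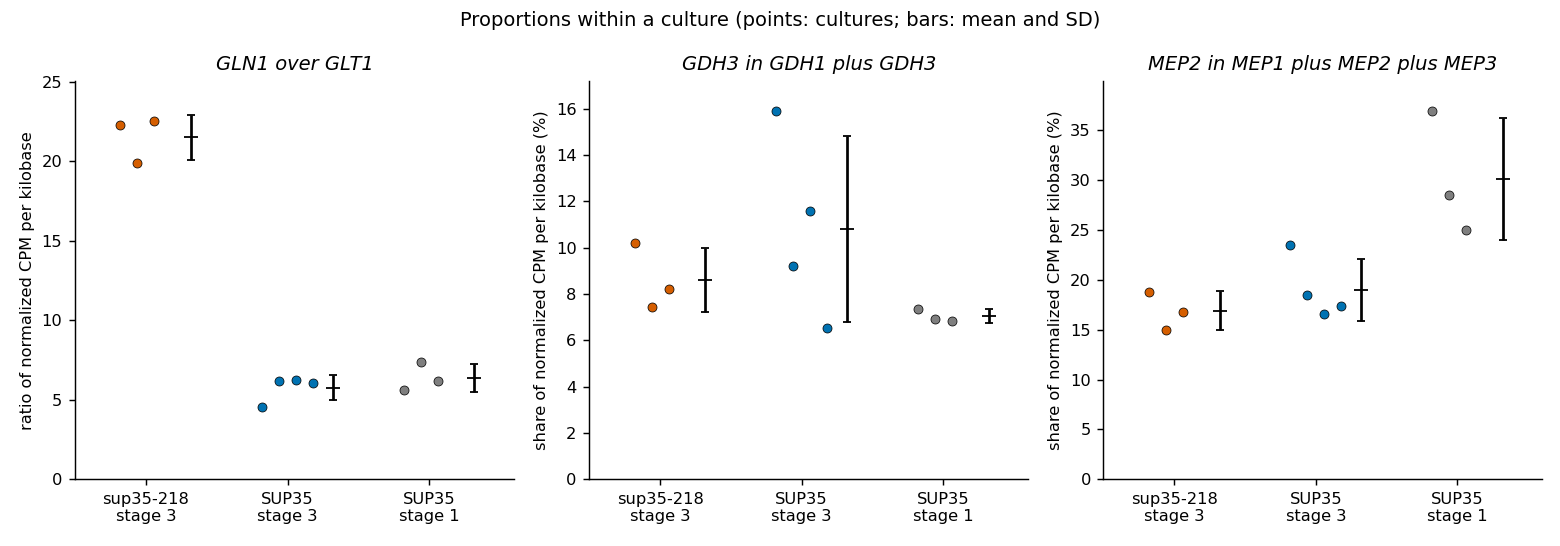
Ratio of GLN1 to GLT1 (left), share of GDH3 in GDH1 plus GDH3 (middle) and share of MEP2 in the 3 ammonium permease genes (right), all from normalized CPM per kilobase; points are cultures, bars are mean and SD. The GLN1 to GLT1 ratio is 19.9 or more in sup35-218 cultures and at most 7.36 in SUP35 cultures, and the MEP2 share is highest in SUP35 cultures of stage 1.

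Among the ammonium permeases, MEP2 (YNL142W, chrXIV:357453-358952, plus strand) encodes the high-affinity transporter that is also known as an ammonium sensor in filamentous growth. MEP2 had 43.9, 35.6 and 32.1 normalized CPM in sup35-218 cells, against 72.7, 59.8, 47.9 and 56.8 in SUP35 cells of stage 3 and 139, 96.7 and 85.2 in SUP35 cells of stage 1. The 3 groups did not overlap, with sup35-218 cultures lowest and SUP35 cultures of stage 1 highest. The log2FC was -0.67 (SE 0.189, adjusted p = 0.012) against SUP35 cells of stage 3, -1.52 (SE 0.195, adjusted p = 3.5e-05) against those of stage 1, and -0.85 (SE 0.174, adjusted p = 0.0037) between SUP35 cells of stage 3 and of stage 1. The call between the stage 3 groups was lost without sup35-218 replicate 2 (log2FC -0.61, adjusted p = 0.051) or without replicate 3 (-0.54, adjusted p = 0.070).

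MEP1 (YGR121C, chrVII:731449-732927, minus strand) encodes an ammonium permease of high capacity. It had 119, 138 and 96.6 normalized CPM in sup35-218 cells, against 157, 185, 163 and 188 in SUP35 cells of stage 3 and 143, 171 and 185 in SUP35 cells of stage 1. The highest sup35-218 culture was below the lowest culture of either SUP35 group. Its log2FC was -0.56 (SE 0.131, adjusted p = 0.0044) against SUP35 cells of stage 3 and -0.50 (SE 0.139, adjusted p = 0.0098) against those of stage 1, just inside 0.5 and so not a DEG; without sup35-218 replicate 3 the second value was -0.33 and its adjusted p was 0.076. Between the SUP35 groups it was 0.06 (95% interval -0.22 to 0.33, adjusted p = 0.77).

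MEP3 (YPR138C, chrXVI:810984-812453, minus strand), the gene for a permease of low affinity, had 67.0, 61.4 and 59.5 normalized CPM in sup35-218 cells, against 76.7, 74.3, 74.1 and 76.7 in SUP35 cells of stage 3 and 90.7, 68.0 and 66.4 in SUP35 cells of stage 1. The sup35-218 cultures were below those of SUP35 at stage 3, but the log2FC of -0.27 did not pass the test (95% interval -0.52 to -0.01, adjusted p = 0.087), and against SUP35 cells of stage 1 it was -0.26 (adjusted p = 0.11). Between the SUP35 groups the log2FC was 0.01 (95% interval -0.24 to 0.26, adjusted p = 0.96). MEP1 and MEP3 are 71.9% identical over 1452 aligned bases, with a longest identical run of 20 bases. Per kilobase, MEP2 made up 18.8%, 15.0% and 16.8% of the 3 permease transcripts in sup35-218 cells, against 23.5%, 18.5%, 16.6% and 17.4% in SUP35 cells of stage 3 and 36.9%, 28.5% and 25.0% in SUP35 cells of stage 1. The MEP2 share was thus above every stage 3 culture in all SUP35 cultures of stage 1, and the stage 3 groups overlapped.

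GAP1 (YKR039W, chrXI:515063-516871, plus strand) encodes the general amino acid permease, a widely used reporter of nitrogen catabolite repression. GAP1 had 36.0, 25.2 and 26.6 normalized CPM in sup35-218 cells, against 61.6, 53.8, 49.2 and 61.7 in SUP35 cells of stage 3 and 126, 94.2 and 84.9 in SUP35 cells of stage 1. As for MEP2, the 3 groups did not overlap and stood in the same order. The log2FC was -0.95 (SE 0.169, adjusted p = 0.00071) against SUP35 cells of stage 3, -1.79 (SE 0.174, adjusted p = 3.5e-06) against those of stage 1, and -0.84 (SE 0.152, adjusted p = 0.0016) between SUP35 cells of stage 3 and of stage 1. All these calls held when any single culture was left out.

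DAL80 (YKR034W, chrXI:506898-507707, plus strand), which encodes a GATA repressor and is itself under nitrogen catabolite repression, was the least counted of the 10, with 22 to 50 raw counts per culture. It had 10.1, 9.06 and 5.77 normalized CPM in sup35-218 cells, against 8.96, 8.82, 6.96 and 6.72 in SUP35 cells of stage 3 and 11.5, 10.3 and 9.07 in SUP35 cells of stage 1. The sup35-218 cultures overlapped with both SUP35 groups, and the SUP35 cultures of stage 3 were all below those of stage 1. The log2FC was 0.07 (95% interval -0.43 to 0.57, adjusted p = 0.84) against SUP35 cells of stage 3, -0.32 (95% interval -0.83 to 0.19, adjusted p = 0.29) against those of stage 1, and -0.39 (95% interval -0.87 to 0.09, adjusted p = 0.22) between the SUP35 groups. DAL80 overlaps YKR033C on the opposite strand over 407 of its 810 bases, and YKR033C had 0 counts in every culture, as did all 104 genes of the table that lie wholly inside a gene of the opposite strand. Its level per kilobase was therefore taken over its 403 unshared bases.

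**Figure D3:**
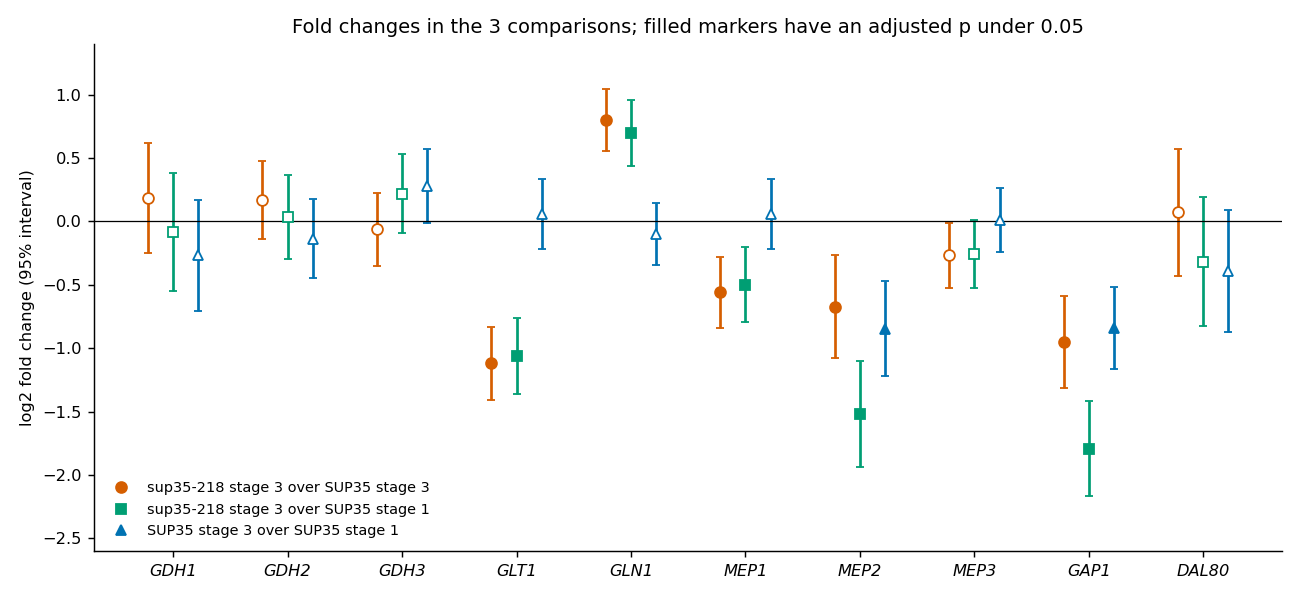
log2FC of the 10 genes with 95% intervals from the quasi-likelihood test, for sup35-218 over SUP35 at stage 3 (circles), sup35-218 at stage 3 over SUP35 at stage 1 (squares) and SUP35 at stage 3 over SUP35 at stage 1 (triangles); filled markers have an adjusted p under 0.05. GLT1 and GLN1 lie away from 0 only in the comparisons with sup35-218, while MEP2 and GAP1 lie below 0 in all 3.

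Groups did not overlap for 6 of the 10 genes between sup35-218 and SUP35 cells of stage 3, where 43.7% of all genes tested had no overlap. This was so for 5 of 10 between sup35-218 cells and SUP35 cells of stage 1, beside 56.5%, and for 4 of 10 between SUP35 cells of stage 3 and of stage 1, beside 33% of all genes. Besides the called genes, these were MEP3 in the first comparison, and GDH3 and DAL80 in the last.

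Levels of different genes were compared per kilobase of gene length. In sup35-218 cells, GLN1 was highest at 1143 ± 35.4 normalized CPM per kilobase, followed by GDH1 at 439 ± 54.9 (SD, n = 3). GDH2 (90.3 ± 19.0) and MEP1 (79.6 ± 13.9) came next and did not differ beyond their spread, and GLT1 followed at 53.2 ± 3.87. MEP3 (42.6 ± 2.68) and GDH3 (41.1 ± 6.61) lay together, and MEP2 (24.8 ± 4.05), DAL80 (20.6 ± 5.65, over its unshared bases) and GAP1 (16.2 ± 3.27) closed the order, each within the spread of its neighbour. In SUP35 cells of stage 3, GLN1 (657 ± 48.4) and GDH1 (386 ± 131) also led, but MEP1 (117 ± 10.5) and GLT1 (116 ± 18.1), which did not differ beyond their spread, came before GDH2 (80.2 ± 9.89; SD, n = 4). MEP3 (51.3 ± 0.960), GDH3 (42.9 ± 4.99), MEP2 (39.5 ± 6.84) and GAP1 (31.3 ± 3.40) followed there, and the cultures of GDH3 and MEP2 overlapped, as did those of MEP2 and GAP1. In SUP35 cells of stage 1, after GLN1 (704 ± 81.5) and GDH1 (464 ± 38.3), MEP1 (112 ± 14.6) and GLT1 (111 ± 10.8) again stood together. GDH2 (88.1 ± 10.3), MEP2 (71.3 ± 18.8), GAP1 (56.1 ± 11.8) and MEP3 (51.0 ± 9.26), each within the spread of its neighbour, ranked above GDH3 (35.2 ± 3.81; SD, n = 3). DAL80 was lowest in SUP35 cells of stage 3 (19.5 ± 2.94) and of stage 1 (25.6 ± 3.01).

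Over all 10 cultures, the pair of members with the most similar log2 levels was GAP1 and MEP2 (Pearson r = 0.976). Outside the 10 genes, the transcripts most like GLT1 among 5366 genes were ADH5 (r = 0.997), MCO32 (r = 0.992) and URA10 (r = 0.991). Those most like GLN1 were CLN3 (r = 0.982), which encodes a G1 cyclin, HXT2 (r = 0.978), a glucose transporter gene, and TDA7 (r = 0.976). Those most like GAP1 were FRE2 (r = 0.982), a ferric reductase gene, POP7 (r = 0.980) and YOL057W (r = 0.980). The 10 points of each correlation fall into 3 groups, so that a difference between groups is enough to give a high r, and the values are a description.

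The regulators of these genes were measured in the same libraries. Of 6 genes for GATA factors and their regulators, 0 were called higher and 4 lower in sup35-218 cells against SUP35 cells of stage 3, beside 18.5% higher and 20.7% lower of all genes tested. The median log2FC was -0.44, beside -0.01 over all genes; 0 of the 6 were higher at an unadjusted p under 0.05 or in DESeq2. URE2, the negative regulator of Gln3, averaged 189 ± 11.4 normalized CPM in sup35-218 cells and 270 ± 37.7 in SUP35 cells of stage 3 (log2FC -0.52, adjusted p = 0.0036). GAT1, a GATA activator, averaged 98.8 ± 15.0 and 140 ± 25.9 in these groups (log2FC -0.50, adjusted p = 0.014), and GZF3, a GATA repressor, averaged 59.1 ± 1.56 and 81.7 ± 10.3 (log2FC -0.47, adjusted p = 0.010). DAL82, an activator of allantoin genes, had a log2FC of -0.41 (adjusted p = 0.014), while GLN3 and DAL81 were not called (log2FC -0.34 and -0.05, adjusted p = 0.12 and 0.80). The calls of GAT1, GZF3 and DAL82 were each lost on leaving out at least 1 culture, GAT1 without SUP35 stage 3 replicate 1 or 2 or sup35-218 replicate 2, GZF3 without sup35-218 replicate 2, and DAL82 without SUP35 stage 3 replicate 1 or sup35-218 replicate 2 or 3; the adjusted p was then between 0.053 and 0.12, and the count of the list called lower between 1 and 4.

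Against SUP35 cells of stage 1, 5 of these 6 regulators were called lower in sup35-218 cells, beside 23.3% of all genes tested. GLN3, which encodes the main GATA activator, averaged 54.2 ± 5.89 normalized CPM in sup35-218 cells, 68.6 ± 14.2 in SUP35 cells of stage 3 and 138 ± 23.8 in SUP35 cells of stage 1. It was thus lower in sup35-218 cells (log2FC -1.35, adjusted p = 3.2e-05) and in SUP35 cells of stage 3 (-1.005, adjusted p = 0.00057) than in SUP35 cells of stage 1, and so was GAT1 (-1.29 and -0.79, adjusted p = 1.8e-05 and 0.0014). The means of MEP2 and GAP1 stood in the same order of groups, and a link to these regulators was not tested. Between the stage 3 groups, GLN3 overlapped and was not called (adjusted p = 0.12).

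Of 8 activators of GDH1 and other glutamate genes, 1 was called higher and 3 lower in sup35-218 cells against SUP35 cells of stage 3, a share near that of all genes tested, of which 39.2% were called (18.5% higher and 20.7% lower). The median log2FC was -0.12. HAP4, which encodes the regulated subunit of the Hap2/3/4/5 activator, rose (274 ± 19.6 normalized CPM in sup35-218 cells and 135 ± 12.2 in SUP35 cells of stage 3, log2FC 1.02, adjusted p = 6.7e-05). LEU3, for the activator of leucine and GDH1 transcription, fell (77.9 ± 8.02 and 135 ± 16.8, log2FC -0.80, adjusted p = 0.00024), as did RTG3 of the retrograde pathway (76.5 ± 9.37 and 124 ± 15.7, log2FC -0.70, adjusted p = 0.00076). The remaining lower gene, named after its values were seen, was HAP5, a call that was lost without sup35-218 replicate 2 or 3 or SUP35 stage 3 replicate 2 (adjusted p = 0.107, 0.0754 and 0.054), and GCN4 had a log2FC of -0.13 (adjusted p = 0.39).

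Of 17 other nitrogen-repressed genes, 5 were called higher and 6 lower in sup35-218 cells against SUP35 cells of stage 3, beside 18.5% higher and 20.7% lower of all genes tested, and the median log2FC was 0.12. DUR3, for urea uptake, averaged 38.9 ± 2.49 normalized CPM in sup35-218 cells and 94.7 ± 7.59 in SUP35 cells of stage 3 (log2FC -1.28, adjusted p = 3.2e-06), and PUT4, for proline uptake, 48.6 ± 8.73 and 159 ± 90.5 (log2FC -1.72, adjusted p = 0.0016). PUT4 was not called against SUP35 cells of stage 1 (-0.70, adjusted p = 0.13). DAL5, for allantoate uptake, had a log2FC of -0.36 (adjusted p = 0.037), a call that was lost on leaving out SUP35 stage 3 replicate 1, 2 or 3 or sup35-218 replicate 1 or 2 (adjusted p = 0.0576 to 0.263). Also lower were DAL3 (-1.03, adjusted p = 5.5e-05), DUR1,2 (-0.86, adjusted p = 0.00011) and DAL2 (-0.41, adjusted p = 0.0094; 0.074 and 0.062 without sup35-218 replicate 1 or 3), which encode enzymes of allantoin and urea breakdown. PUT1, the proline oxidase gene, averaged 116 ± 22.3 in sup35-218 cells and 54.9 ± 5.69 in SUP35 cells of stage 3 (log2FC 1.08, adjusted p = 5.4e-05). The other genes that rose, named after their values were seen, were CAR1 and CAR2 for arginine breakdown, DAL1 for allantoinase and DAL4, a permease gene for allantoin. CAR2 lost its call without sup35-218 replicate 3 (adjusted p = 0.111), and DAL4 without sup35-218 replicate 1 or SUP35 stage 3 replicate 4 (adjusted p = 0.118 and 0.0538). Against SUP35 cells of stage 1, CAR1, DAL1 and DAL4 were also called higher, but CAR2 was not (log2FC 0.09, adjusted p = 0.75).

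Glutamate synthesis also draws on 2-oxoglutarate, and of 9 genes for its supply 2 were called higher and 3 lower in sup35-218 cells against SUP35 cells of stage 3, beside 18.5% higher and 20.7% lower of all genes tested. The median log2FC was -0.08. The citrate synthase genes CIT3 (log2FC 0.86, adjusted p = 6.2e-05) and CIT2 (0.70, adjusted p = 0.0029) rose. Against SUP35 cells of stage 1, CIT2 was again higher (0.48, adjusted p = 0.029), whereas CIT3 was lower (98.5 normalized CPM in sup35-218 cells and 158 in SUP35 cells of stage 1, log2FC -0.68, adjusted p = 0.00026). The NADP-dependent isocitrate dehydrogenase genes IDP1 (262 ± 24.3 normalized CPM in sup35-218 cells and 454 ± 53.9 in SUP35 cells of stage 3, log2FC -0.80, adjusted p = 0.00033) and IDP2 (76.3 ± 9.08 and 141 ± 33.8, log2FC -0.89, adjusted p = 0.00082) fell. The remaining lower gene, named after its values were seen, was ACO1 for aconitase (log2FC -0.50, adjusted p = 0.044), a call that was lost without sup35-218 replicate 1 or 3 or SUP35 stage 3 replicate 1, 2 or 4 (adjusted p = 0.0732 to 0.226).

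A further 8 genes known to rise as glucose runs out were counted beside these. In sup35-218 cells against SUP35 cells of stage 3, 3 of them were called higher and 2 lower, and against SUP35 cells of stage 1, 1 was called higher and 4 lower. Of all genes tested, 39.2% were called in the first of these comparisons and 46.3% in the second. Against SUP35 cells of stage 3, HSP12 (log2FC 0.89, adjusted p = 0.00044), PCK1 (0.80, adjusted p = 0.00076) and ACS1 (0.45, adjusted p = 0.014) were higher. CTT1 (-3.03, adjusted p = 7.1e-05) and ADH2 (-1.25, adjusted p = 0.00036) were lower. Against SUP35 cells of stage 1, the gene called higher was PCK1 (0.87, adjusted p = 0.00053). HSP12 (0.05, adjusted p = 0.81) and ACS1 (0.01, adjusted p = 0.96) were not called there. The summed level of the 8 genes was 2727 to 3530 normalized CPM in sup35-218 cells and 1794 to 2885 in SUP35 cells of stage 3. In SUP35 cells of stage 1 it was 3595 to 4563. Most of this sum came from HSP12, and the part of the sum in the results above was not tested.

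**Figure D4:**
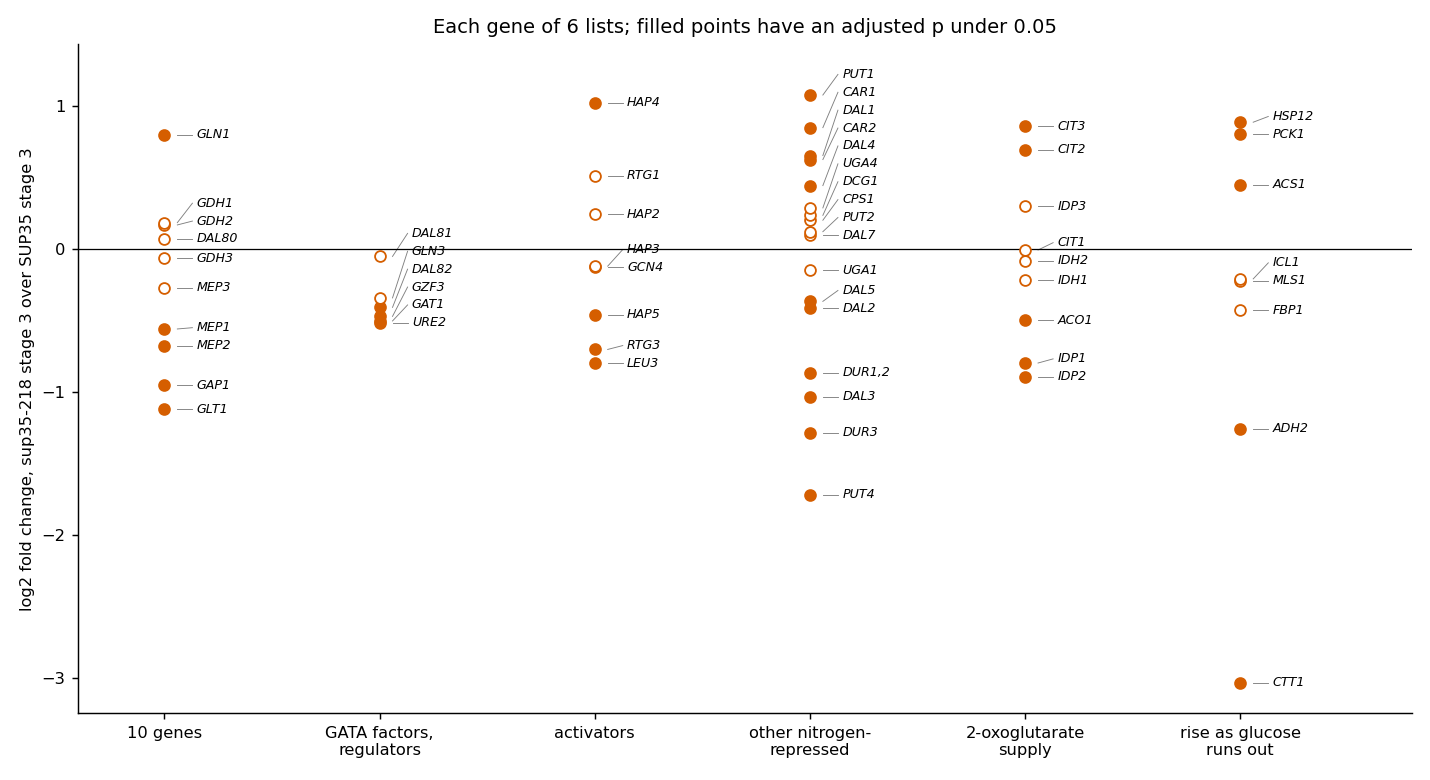
log2FC of sup35-218 over SUP35 at stage 3 (vertical axis) for the 10 genes and for each gene of the 5 related lists; each point is a gene, and filled points have an adjusted p under 0.05. The GATA regulators all lie below 0, from -0.52 to -0.05, while the other nitrogen-repressed genes run from -1.72 for PUT4 to 1.08 for PUT1.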

How the data were processed

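RNA of 10 yeast cultures was sequenced by the authors from directional libraries. Per the labels and methods, they trimmed reads with Trimmomatic, aligned them to the S288C genome (R64-3-1) with HISAT2 and counted them per gene with featureCounts. The strand setting is not given in the sources used here. All 104 genes wholly inside a gene of the opposite strand had 0 counts, as counting without strand would give. Counts of a gene may therefore include reads of its opposite strand, which was not tested. The deposited values are raw counts of 6607 genes per culture, without normalization, and all columns were used. Groups and replicate numbers came from the labels. Genes were filtered by filterByExpr (minimum count 10), scaled by TMM and fitted with 3 groups in 1 fit by edgeR (4.0.16, R 4.3.3, limma 3.58.1; quasi-likelihood, Benjamini-Hochberg). The SE is the log2FC divided by the square root of F, and 95% intervals use the test's degrees of freedom. Cultures are separate biological replicates, per the methods, and replicates differed by more than counting error.

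The 10 genes and all lists were chosen with earlier results of these data known, and 1 gene of a list is not reported here. Named genes are the 10, all GATA regulators and, per other list, the 3 called genes with the lowest adjusted p at stage 3. Called genes against the list's median were named too. GCN4 was named outside this rule, as were genes marked as named after their values were seen. Likeness is given for the 3 members with the lowest adjusted p. It is the Pearson r of log2 CPM (prior count 2) over genes with a mean count of at least 50. The mating-type markers and the plasmid genes are checks of the labels. Of 200 genes changed in simulated data of 5825 genes, 80.3% at a log2FC of 0.7 and 98.5% at 1 and at 1.5 were recovered, with 11 of 196 calls false. In the data far more genes differed, with 39.2% called between the stage 3 groups, so these shares need not hold there. Promoters and coordinates are from RefSeq R64, where 5924 of the 6607 genes were matched, 99.6% with the same ends. Alternatives were other size factors, DESeq2 (1.42.0), other filters, fits of 2 groups, a replicate block and leaving out each culture.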

Additional observations from a re-analysis of the deposited data

How the results depend on the processing

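All 5 calls of the 10 genes between sup35-218 and SUP35 cells of stage 3 kept direction and side of the threshold under DESeq2 size factors, upper-quartile scaling, DESeq2's own test, both other filters and a fit of the 2 groups alone, as did the calls in the other comparisons. Leaving out a culture, the count called lower was 3 to 4 against either SUP35 group and 2 to 3 between the SUP35 groups, and the count called higher stayed at 1, 1 and 0. Changes of sign occurred only in values that were not called: on leaving out a culture, the log2FC between SUP35 cells of stage 3 and stage 1 ran between -0.042 and 0.14 for GLT1, between -0.038 and 0.14 for MEP1 and between -0.064 and 0.17 for MEP3. In sup35-218 cells against SUP35 cells of stage 1 it ran between -0.15 and 0.038 for GDH1 and between -0.084 and 0.22 for GDH2, and against those of stage 3 between -0.057 and 0.32 for DAL80, -0.15 and 0.074 for GDH3 and -0.13 and 0.12 for DAL81. Replicate numbers recur across groups but number separate cultures. Same-numbered sup35-218 and SUP35 cultures of stage 3 had correlations of their deviations of 0.0275, 0.1 and 0.176, beside -0.212 to 0.0992 for other pairs. Between the SUP35 groups, same-numbered cultures had 0.408, -0.0044 and -0.177, beside -0.426 to 0.34 for other pairs. Whether same-numbered cultures share a batch was not tested. With the replicate number as a block, which in effect drops SUP35 stage 3 replicate 4, members called higher in sup35-218 cells at stage 3 were 2 in place of 1, with GDH1 added (log2FC 0.43, adjusted p = 0.021 in edgeR), and GDH1 was lower between the SUP35 groups (-0.52, adjusted p = 0.017); no other call of the 10 genes changed. Taken over the related lists, directions, comparisons and settings, 24 of 200 counts of called genes moved by over 1.5 times on leaving out a culture and 15 of 240 under the other settings. The other settings here include the DEG rule, under which a count can only stay or fall. Apart from that rule, the cause of these moves was not tested. DAL80 had 22 to 50 raw counts per culture, and how far depth limits its calls was not tested.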
